A study of Mus musculus with 9 samples.

Results

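The protein-coding genes of mouse chromosome 8 were followed at the RNA level, by RNA-seq, through 9 clones of the mouse embryonic stem cell line E14. Each clone was taken from the bulk line in a search for varied lipid droplet sizes, and all were grown in serum with leukaemia inhibitory factor on gelatin. No clone carries a labelled droplet size, treatment, genotype change or karyotype in the sources used here, so each clone stands as 1 sample without a group. No 2 clones are replicates and nothing below was tested. Of 1040 protein-coding genes of the chromosome (GENCODE M21, GRCm38) in the tables, 57 were left out by symbol because they belong to other gene sets (ribosomal, proteasomal, respiratory chain, solute carrier, integrin, cadherin and collagen IV families, and several single genes). Of the 983 others, 336 had a mean below 1 CPM (counts scaled to library size) and 83 of these had no count at all. The remaining 647 genes are the members, of 13375 genes that passed the same minimum genome-wide. They were selected on their measured mean level, and the chromosome was singled out because earlier results of these data showed it to move as a whole. Lzts1 (mean 1.00 CPM) and Il27ra (1.05 CPM) lay just inside the minimum, and B3gnt3 (0.996 CPM) and Nlrc5 (0.996 CPM) just outside.

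Mouse embryonic stem cell lines in culture often gain a copy of a whole chromosome, and chromosome 8 is among those gained most often. RNA output of most genes rises roughly with the number of gene copies, while some genes are held at a level set by feedback, by limiting partners or by the state of the cell. Proteins that work in complexes depend on partners coded on other chromosomes, whose copy number need not change with theirs. DNA was not measured here, so all values below are RNA levels and none is a copy number.

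Totals ran from 10783718 estimated counts in clone 1 to 14309662 in clone 6. The stem cell markers Pou5f1, Sox2, Nanog, Esrrb, Sall4 and Lin28a were present in all 9 clones, at means of 278 to 1075 CPM for the 6 genes. Esrrb stood at 381 and 365 CPM in clones 10 and 11 against 561 to 719 CPM in the other 7. Nanog was lowest in the same 2 clones, at 264 and 246 CPM, with 281 CPM in clone 17. Pou5f1 (936 and 842 CPM) and Sox2 (249.5 and 234 CPM) were also lowest there. Sall4 (533.5 and 544 CPM) and Lin28a (559 and 582 CPM) lay within the range of the other 7. The 6 fibroblast markers Col1a1, Col1a2, Dcn, Lum, Postn and Thy1 summed to 49.6 and 58.4 CPM in clones 10 and 11 against 5.87 to 19.1 CPM in the other 7. Most of this was Col1a1, at 33.3 and 42.02 CPM in those 2 clones, while Dcn, Lum and Postn stayed at or below 0.622 CPM in every clone. Col1a2 stood at 8.74 and 7.81 CPM in the 2 clones, and Thy1, at 7.37 and 7.46 CPM, lay within the range of the other 7. The part of these cells' markers in the members' values was not tested. In clone 1, 6.83% of the counts fell in a single transcript of Lars2, against at most 1.88% in the largest transcript of any other clone.

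Promoters are printed for 4 members that the results turn on, from RefSeq (GRCm38.p6), each running from 250 bases before the gene's start to 50 after it. Fam32a and Dnaja2 kept close to the chromosome's common change in every clone. Mt1 and Mt2, the neighbouring genes of metallothioneins, small proteins that bind zinc and copper, moved together and further than the chromosome did. Capitals mark the core of the metal response element, the motif bound by the zinc-sensing factor MTF1, searched as TGCACNC or TGCGCNC on both strands, so that a reverse match reads GNGTGCA or GNGCGCA. The windows are chr8:72219495-72219794 on the plus strand, chr8:85555312-85555611 on the minus strand, chr8:94178839-94179138 on the plus strand and chr8:94172368-94172667 on the plus strand.
Fam32a: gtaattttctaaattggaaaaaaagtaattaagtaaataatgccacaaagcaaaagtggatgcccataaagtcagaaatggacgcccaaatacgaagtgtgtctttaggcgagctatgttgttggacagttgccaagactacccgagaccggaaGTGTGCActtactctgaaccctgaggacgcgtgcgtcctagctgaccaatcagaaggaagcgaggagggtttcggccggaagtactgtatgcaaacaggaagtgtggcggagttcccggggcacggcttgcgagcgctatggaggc
Dnaja2: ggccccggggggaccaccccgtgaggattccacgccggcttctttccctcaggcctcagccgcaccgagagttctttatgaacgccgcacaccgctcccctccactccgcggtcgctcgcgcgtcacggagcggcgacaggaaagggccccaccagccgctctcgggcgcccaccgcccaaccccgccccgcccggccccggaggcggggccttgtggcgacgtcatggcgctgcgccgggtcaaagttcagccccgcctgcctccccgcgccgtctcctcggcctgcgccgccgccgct
Mt1: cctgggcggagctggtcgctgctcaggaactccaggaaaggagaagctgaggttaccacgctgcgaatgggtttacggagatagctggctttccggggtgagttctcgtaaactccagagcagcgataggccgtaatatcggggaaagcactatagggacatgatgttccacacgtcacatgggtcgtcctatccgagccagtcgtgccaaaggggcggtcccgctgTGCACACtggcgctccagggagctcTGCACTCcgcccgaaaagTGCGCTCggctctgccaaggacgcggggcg
Mt2: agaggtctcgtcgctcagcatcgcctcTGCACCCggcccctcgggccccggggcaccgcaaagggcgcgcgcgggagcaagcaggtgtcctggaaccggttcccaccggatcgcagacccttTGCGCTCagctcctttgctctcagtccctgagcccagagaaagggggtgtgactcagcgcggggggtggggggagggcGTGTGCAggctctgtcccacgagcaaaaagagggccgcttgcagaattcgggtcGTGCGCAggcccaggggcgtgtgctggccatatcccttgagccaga
The Mt1 window holds 3 cores, the Mt2 window 4, the Fam32a window 1 and the Dnaja2 window 0. At least 1 core stands in 25.6% of all 27025 promoters of the same length and in 38.6% of the 446 members' promoters, and 4 or more stand in 0.5% of all and in 1.57% of the members'. A match is a run of letters and no evidence of binding. A comparison of base composition between members is void, because a promoter was matched for 446 of 647 members (68.9%), under the 80% needed.

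The level of a member in a clone was set against the member's own median over the 9 clones, on the log2 CPM scale, and the median of these deviations over the 647 members is called the step. The step was -0.21 in clone 1, -0.20 in clone 4, -0.21 in clone 11 and -0.20 in clone 13. It was 0.00 in clone 6, and 0.29 in clone 8, 0.26 in clone 10, 0.31 in clone 14 and 0.31 in clone 17. Clone 6 sits near 0 partly by construction, since with 9 clones the median of a gene is the value of the fifth. The share of members above their own median was 10.8 to 14.4% in clones 1, 4, 11 and 13, 18.2% in clone 6 and 79.4 to 84.7% in clones 8, 10, 14 and 17. In bulk RNA, fewer cells of a type (here, fewer cells with a high output from the chromosome) and less RNA per cell cannot be told apart.

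**Figure D1:**
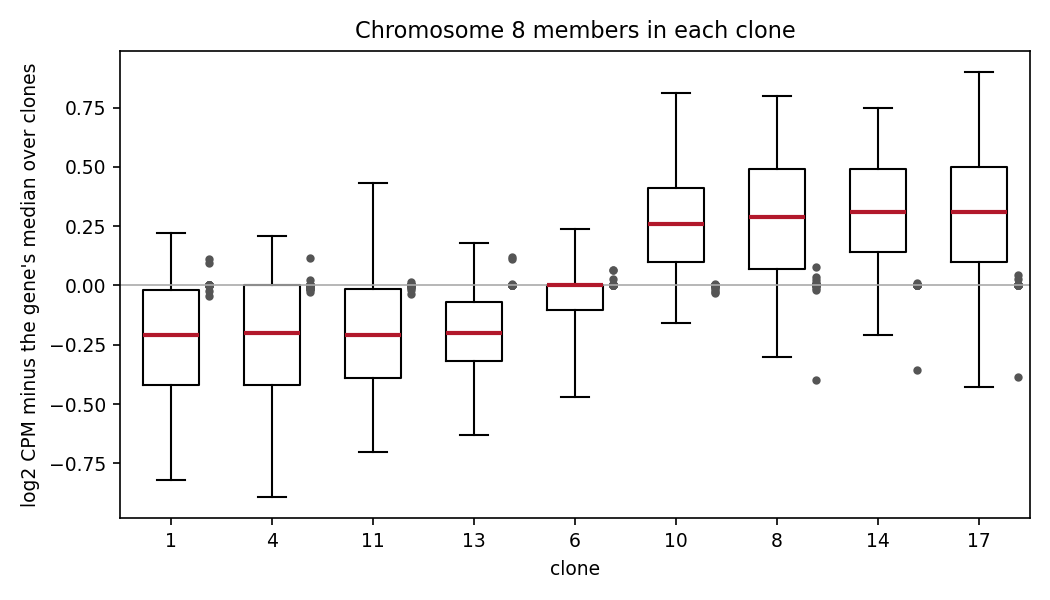
Deviation of the 647 chromosome 8 members from their own medians (log2 CPM, vertical axis) in each of 9 clones (horizontal axis). Boxes span the quartiles with the median in red, whiskers reach the 5th and 95th percentiles, and grey points are the medians of the other chromosomes. The red medians lie at -0.21 to -0.20 in clones 1, 4, 11 and 13 and at 0.26 to 0.31 in clones 8, 10, 14 and 17, and the low grey points in clones 8, 14 and 17 are chromosome 11.

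Read as a share of all gene counts, the members took 3.02, 3.23, 3.43 and 3.28% in clones 1, 4, 11 and 13, 3.68% in clone 6, and 4.83, 4.67, 4.95 and 4.90% in clones 8, 10, 14 and 17. The shares put the 9 clones in the same 3 bands as the step does, without a reference to any gene's median. They sum the counts of the same members, so they restate the step and add no separate support. A share also depends on the rest of the library, and in clone 1 a single Lars2 transcript took 6.83% of the counts. The 46 genes left out by symbol that reached 1 CPM had a median deviation of -0.13, -0.20, -0.18 and -0.19 in clones 1, 4, 11 and 13. Theirs was -0.00 in clone 6 and 0.23, 0.25, 0.39 and 0.36 in clones 8, 10, 14 and 17. These genes lie on the chromosome that was chosen with these data known, so their values are no independent check of the step. Other chromosomes apart from 6 and 11 had medians of -0.04 to 0.08 in every clone. Chromosome 11 stood at -0.40, -0.36 and -0.38 in clones 8, 14 and 17 and chromosome 6 at 0.11 and 0.12 in clones 1 and 13, so only clone 10 of the clones with a high step had every other chromosome within 0.03 of 0.

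Differences between pairs of clones do not use the gene median. Clone 6 exceeded clones 1, 4, 11 and 13 by medians of 0.18, 0.19, 0.19 and 0.17 on the log2 scale over the members. It lay below clones 8, 10, 14 and 17 by 0.35, 0.31, 0.40 and 0.38. Clone 6 thus held an intermediate place in all 8 of its pairings. Between clones 8, 10, 14 and 17 on one side and clones 1, 4, 11 and 13 on the other, the median differences ran from 0.49 (clones 10 and 11) to the extreme of all pairs, clone 1 against clone 14, with a ratio of 0.667 and a log2 difference of -0.58. For scale, 3 units of output against 2 is 0.585 on the log2 scale. All other pairs lay nearer 0 than the extreme one, and clone 6 differed from no clone by more than 0.40. Whether copy number has a part in these differences was not tested.

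Clones 10 and 11 make the plainest pair. Over the genes tested elsewhere their median difference was -0.00, and every other chromosome's median lay between -0.03 and 0.04. The members had a median of 0.49, or 1.41-fold, with quartiles of 0.34 and 0.63. Of 647 members 609 (94.1%) were higher in clone 10, where the share over all 13375 genes tested was 51.9%. Between clones 14 and 1 the share of all genes higher in clone 14 was 51.3%, and 70 members (10.8%) were higher in clone 1.

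**Figure D2:**
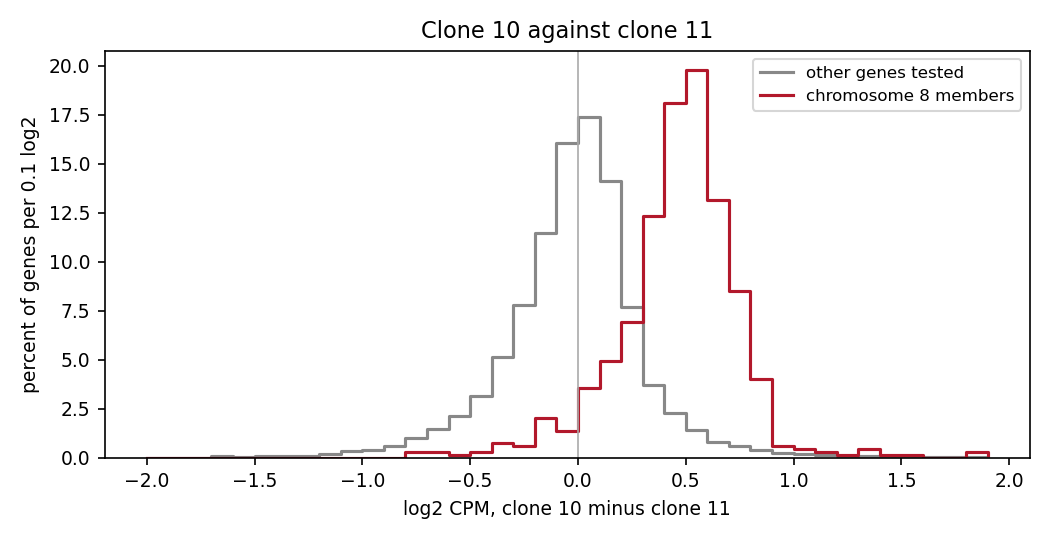
Log2 CPM of clone 10 minus clone 11 (horizontal axis, values from -2 to 2 drawn) against the percent of genes per 0.1 log2 (vertical axis), for the 647 members in red and the other genes tested in grey. The grey curve centres on 0 and the red curve on 0.49, and 38 members fall below 0.

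The step ran the length of the chromosome. In 13 windows of 10 Mb, each median over members put clones 8, 10, 14 and 17 above clones 1, 4, 11 and 13, in 13 of 13. Window medians ranged from 0.21 to 0.47 in clone 14, 0.15 to 0.43 in clone 17, 0.18 to 0.43 in clone 8 and 0.15 to 0.42 in clone 10. They ranged from -0.42 to -0.13 in clone 4 and -0.33 to -0.14 in clone 13, while clone 11 reached 0.00 in 2 windows and stayed below 0 in the other 11. No window in clone 8, 10, 14 or 17 was at or below 0.

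**Figure D3:**
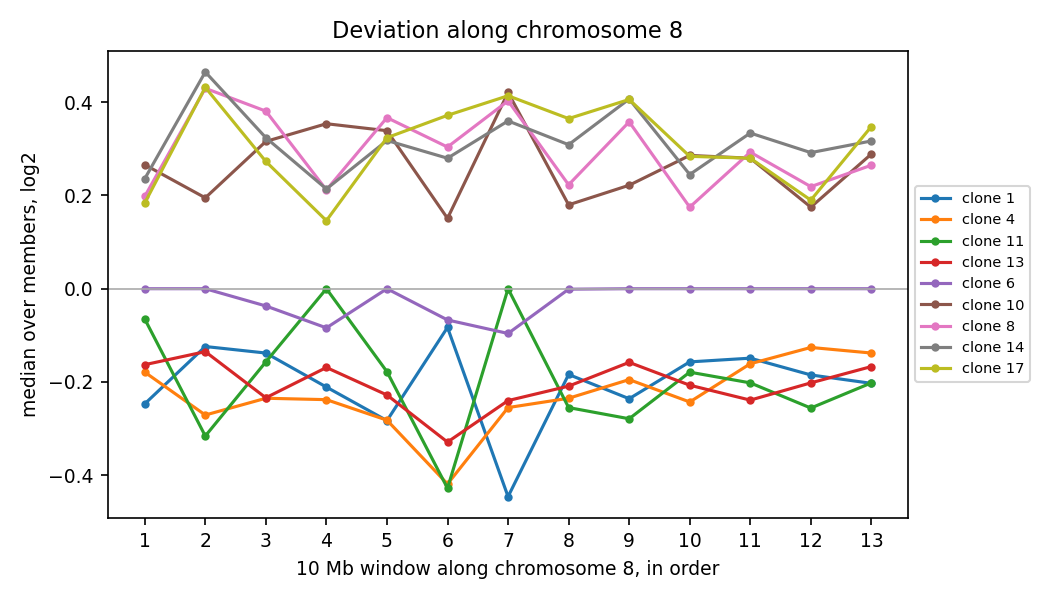
Median deviation over members (log2, vertical axis) in each of 13 consecutive windows of 10 Mb along chromosome 8 (horizontal axis, window number), 1 line per clone. The lines of clones 8, 10, 14 and 17 stay between 0.15 and 0.47 and those of clones 1, 4, 11 and 13 between -0.45 and 0.00, without crossing.

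A member was said to follow the step when its deviation lay within 0.3 log2 of the step in all 9 clones, and to depart when it lay 1 log2 or more away in at least 1. By this description 182 members (28.1%) followed, 76 (11.7%) departed and 389 (60.1%) lay between. The number that departed was 183 with no minimum level, 32 on the log2(TPM + 1) scale and 30 among members of at least 5 CPM. Of all genes tested, 24.3% lay within 0.3 of their own chromosome's median throughout and 14.3% went 1 or more from it, shares not far from those of the members. Within 0.3 of the chromosome 8 step itself lay 6.36% of all genes. The 4 highest clones were 8, 10, 14 and 17 for 363 members (56.1%) and for 7.63% of all genes. Since the step was taken from the same members, these shares describe them and support nothing.

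The slope of each member's deviation on the step over the 9 clones says how far it moved per unit of step. Its median was 1.08 over the members, with quartiles of 0.72 and 1.43, and -0.03 over genes of other chromosomes. The step is the median of these same members, so a median slope near 1 is set by construction. The slopes describe the members and support nothing. A slope from 0.5 to 1.5 was found for 399 members (61.7%) and for 18.9% of all genes tested. Slopes were above 1.5 for 131 members (20.2%, against 4.10% of all genes) and below 0 for 55 (8.5%, against 49.1% of all genes). They ran from 0 to 0.5 for 62 (9.6%), a share that was not taken over all genes. Slope moved with level. In 4 bins of 161 or 162 members, from the lowest to the highest mean level, its median was 0.78, 0.97, 1.09 and 1.22. Without clone 1, an alternative added after seeing the data, it was 0.71, 1.00, 1.05 and 1.18. Followers numbered 4, 40, 63 and 75 in the same bins and departing members 58, 14, 3 and 1. The spread that counting alone gives was 0.25, 0.10, 0.06 and 0.04 log2, against a median spread around the step of 0.42, 0.23, 0.19 and 0.16. The prior count of 2 also draws low values together, and its part in the lower slopes was not tested. Between clones 10 and 11 the median difference was 0.34, 0.46, 0.52 and 0.54 in these bins, and between clones 14 and 1 it was 0.28, 0.50, 0.59 and 0.70. In the highest bin, from 75.1 CPM up, all 162 members were higher in clone 10 than in clone 11 and all 162 in clone 14 than in clone 1.

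**Figure D4:**
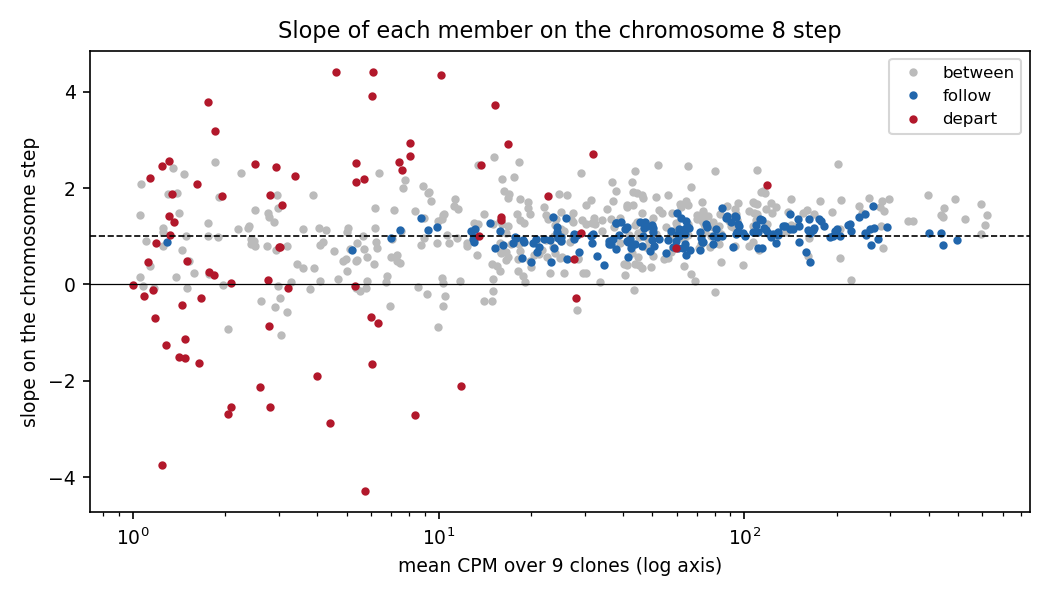
Slope of each of the 647 members on the chromosome step (vertical axis) against its mean level over 9 clones (CPM, log axis), with followers in blue, departing members in red and the rest in grey. The dashed line marks a slope of 1. Most red points lie to the left, below 10 CPM, where slopes run from -4.30 to 4.41, and the spread of slopes narrows as the level rises.

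The members that kept closest to the step have roles of many kinds. Ikbkb, a kinase that releases NF-kappaB (chr8:22659212-22706589, minus strand), stood at 20.8, 19.4, 19.9 and 19.2 CPM in clones 1, 4, 11 and 13, 23 in clone 6 and 28.9, 29.6, 28.8 and 28.7 in clones 8, 10, 14 and 17. Its values in clones 8, 10, 14 and 17 all lay above those in the other 5 clones, and the range was 1.54-fold between clones 10 and 13 (exact 95% interval 1.31 to 1.81). The interval covers counting error only, here and below. Fam32a (chr8:72219730-72224418, plus strand) stood at 77.6, 88.8, 83.2 and 85.4 CPM in clones 1, 4, 11 and 13, 96.7 in clone 6 and 114, 119, 125 and 114 in clones 8, 10, 14 and 17, and its slope was 1.00. Dnaja2, a co-chaperone of Hsp70 whose promoter is printed above, stood at 200, 218, 226 and 214 CPM in clones 1, 4, 11 and 13, 251 in clone 6 and 315, 319.7, 329 and 316 in clones 8, 10, 14 and 17. Clone 6 was the fifth in each of these genes, between the other 2 sets of clones. Genes chosen for closeness to the step keep its order of clones, so this order describes the choice and supports nothing. Map1lc3b, the LC3B protein of autophagosomes, stood at 107, 103, 102 and 99.8 CPM in clones 1, 4, 11 and 13, 113 in clone 6 and 150.3, 138, 139.9 and 147 in clones 8, 10, 14 and 17, with a slope of 0.97. The rest of the 10 closest were Usb1, an exonuclease that trims U6 RNA (slope 1.03), Dda1, a partner of a cullin ubiquitin ligase (1.04), Cfdp1 (0.94), Fam192a (0.93), the endocytic adaptor Eps15l1 (1.16) and the lysosomal channel Mcoln1 (0.95). Map1lc3b, Dda1 and Fam192a overlap a gene on the other strand, and the sources used here do not say whether counting used strand.

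Among replication and cell cycle members, 7 of 25 followed, 1 departed and the median slope was 1.14. Slopes, followers and departing members changed with level, and the lists here and below were not matched for level. Differences between lists are therefore no trait of a role. Mcm5, a subunit of the replicative helicase, stood at 500.3, 588, 402 and 491 CPM in clones 1, 4, 11 and 13, 559 in clone 6 and 711, 678, 732 and 692 in clones 8, 10, 14 and 17. Clone 11 was the lowest, -0.34 from the step, and clone 4 lay above clone 6. Cdt1, which loads that helicase at origins, stood at 231, 270.1, 174 and 234 CPM in clones 1, 4, 11 and 13, 259 in clone 6 and 329, 284, 383 and 360.2 in clones 8, 10, 14 and 17. Tfdp1, the dimer partner of E2F factors, stood at 166, 198, 185 and 184 CPM in clones 1, 4, 11 and 13, 220.4 in clone 6 and 330.5, 300.5, 360 and 354 in clones 8, 10, 14 and 17, with a slope of 1.78. Pcm1 of centriolar satellites had a slope of 1.75. Hmgb2, a DNA-bending chromatin protein, was the 1 that departed, at 55.9, 69.96, 87.7 and 96.8 CPM in clones 1, 4, 11 and 13, 132 in clone 6 and 135, 137, 169.6 and 183 in clones 8, 10, 14 and 17. Clone 6 came close to clones 8 and 10 for Hmgb2, and clone 1 lay at -1.04 from the step. Of 14 DNA repair members 7 followed and none departed, with a median slope of 1.11. Rfwd3, a ubiquitin ligase acting at stalled forks, stood at 169, 183, 188 and 181 CPM in clones 1, 4, 11 and 13, 224 in clone 6 and 283, 274, 269 and 239 in clones 8, 10, 14 and 17 and followed. Lig4, the ligase of end joining, had the largest residual of the repair list, -0.53 in clone 1, and stood at the same 16.1 CPM in clones 10 and 11.

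Chromatin and transcription members had a median slope of 1.30, with 10 of 33 following and 1 departing. Smarca5, an ISWI remodelling ATPase and the member with the highest mean level (621 CPM), stood at 484, 512, 459 and 472 CPM in clones 1, 4, 11 and 13, 519.9 in clone 6 and 852, 738, 787 and 768 in clones 8, 10, 14 and 17. Clones 8, 10, 14 and 17 did not overlap with the other 5. Ash2l, a core subunit of H3K4 methyltransferases, stood at 303, 393, 353 and 302 CPM in clones 1, 4, 11 and 13, 393 in clone 6 and 605, 499, 595 and 612 in clones 8, 10, 14 and 17. Ankrd11 ran 2.59-fold between clones 14 and 1 (exact 95% interval 2.47 to 2.72), with a slope of 1.85, and Gatad2a of the NuRD complex had a slope of 1.31. Zfpm1, a cofactor of GATA factors, departed the other way, at 6.62, 5.93, 8.85 and 6.12 CPM in clones 1, 4, 11 and 13, 7.14 in clone 6 and 3.65, 9.24, 5.54 and 4.04 in clones 8, 10, 14 and 17. Its lowest values were in clones 8, 17 and 14. RNA processing and translation, the longest list, had 16 followers of 37, none that departed and a median slope of 1.21. Sf3b3 of the spliceosome, which overlaps Cog4 on the other strand, stood at 386, 476, 423 and 405 CPM in clones 1, 4, 11 and 13, 447 in clone 6 and 632, 544, 583 and 556 in clones 8, 10, 14 and 17 and followed. Cnot1, scaffold of the main deadenylase, stood at 313, 436, 519 and 466 CPM in clones 1, 4, 11 and 13, 574 in clone 6 and 852, 696, 782 and 719.6 in clones 8, 10, 14 and 17. Clone 1 was lowest for Cnot1, -0.67 from the step, and clone 6 lay above all of clones 1, 4, 11 and 13. Abce1, which recycles ribosomes, had a slope of 1.35, the lysyl-tRNA synthetase Kars 0.82, the helicase Ddx39 1.06 and Upf3a of nonsense-mediated decay 1.86.

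Mitochondrial and metabolic members had 13 followers of 28, 1 that departed (Ldhd, -1.17 from the step in clone 11, at a mean of 2.81 CPM) and a median slope of 1.16. Tomm20, an import receptor of the outer membrane, stood at 386, 326, 344 and 327 CPM in clones 1, 4, 11 and 13, 392 in clone 6 and 617, 507, 544 and 565 in clones 8, 10, 14 and 17. Prdx2 and Got2, a peroxidase and an aspartate transaminase, had slopes of 1.19 and 0.82. Aprt, of adenine salvage, had a slope of 0.54 and varied 1.55-fold between clones 17 and 11 (exact 95% interval 1.47 to 1.64). Acsl1, which activates long-chain fatty acids, stood at 52.99, 38.7, 26.9 and 44.02 CPM in clones 1, 4, 11 and 13, 51.5 in clone 6 and 66.5, 44.7, 60.7 and 63.4 in clones 8, 10, 14 and 17. Clones 10 and 11 were below the step for Acsl1, at -0.47 and -0.73 from it. Vesicle, lysosome and Golgi members had 13 followers of 32, 1 that departed and a median slope of 1.01. Mbtps1, the site-1 protease that cleaves SREBP, stood at 178, 200, 196 and 198 CPM in clones 1, 4, 11 and 13, 251 in clone 6 and 341, 286, 367 and 352 in clones 8, 10, 14 and 17 and followed with a slope of 1.62. Lamp1 had a slope of 1.45 and overlaps Grtp1 on the other strand. Snx25 departed in clone 4, at 5.66, 1.98, 4.70 and 5.59 CPM in clones 1, 4, 11 and 13, 7.63 in clone 6 and 11.2, 8.67, 10.4 and 10.8 in clones 8, 10, 14 and 17. Its low value in clone 4 was the only one below 4 CPM.

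**Figure D5:**
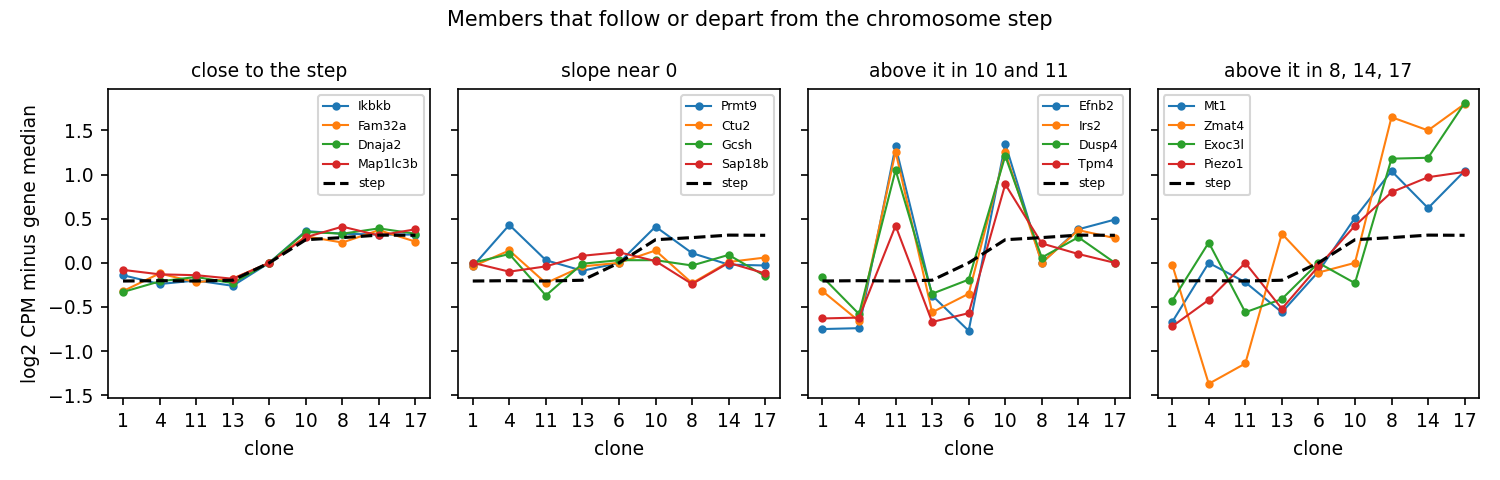
Log2 CPM minus the gene's median (vertical axis) in 9 clones (horizontal axis) for 16 named members in 4 panels, with the chromosome step as a dashed line. The first panel keeps to the dashed line, the second runs flat across it, the third peaks in clones 10 and 11, and the fourth reaches 0.62 to 1.81 in clones 8, 14 and 17.

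Some members did not move with the step. A slope near 0 is not a constant level, and several of these genes varied between clones without relation to the step. Of those at 20 CPM or more, the 6 with slopes nearest 0 were Prmt9 (0.05), Ctu2 (0.07), Gcsh (0.10), Plekha2 (-0.11), Sap18b (-0.15) and Nr2f6 (0.20). Gcsh, the carrier protein of the glycine cleavage system (chr8:116981810-116993537, minus strand), stood at 228, 245, 177 and 227 CPM in clones 1, 4, 11 and 13, 233 in clone 6 and 224, 233, 242 and 206 in clones 8, 10, 14 and 17. Clone 11 alone was low, and the values in clones 8, 10, 14 and 17 overlapped those of the other clones. Ctu2, of the tRNA thiolation enzyme, stood at 67.8, 77.2, 59.4 and 68.1 CPM in clones 1, 4, 11 and 13, 69.9 in clone 6 and 59.6, 77.1, 70.4 and 72.8 in clones 8, 10, 14 and 17. It overlaps Piezo1, which moved far, on the other strand. Prmt9, an arginine methyltransferase, stood at 30.5, 42.1, 31.9 and 29.4 CPM in clones 1, 4, 11 and 13, 31.3 in clone 6 and 33.8, 41.7, 30.8 and 30.6 in clones 8, 10, 14 and 17, highest in clones 4 and 10. The orphan receptor Nr2f6 stood at 40.9, 47.4, 33.6 and 35.5 CPM in clones 1, 4, 11 and 13, 40.5 in clone 6 and 34.6, 44.4, 48.2 and 40.96 in clones 8, 10, 14 and 17, with overlap between all 3 sets of clones. Sap18b shares 98.8% of its 31-base pieces with transcripts of other genes, Nr2f6 47.5% and Ctu2 43.8%, so their levels and slopes are uncertain. Among members at 10 CPM or more, Lonrf1 had the lowest clone 10 against clone 11 difference, -0.65, and was picked here after its values were seen. It had 14.3 CPM in clone 10, below its 22.5 CPM in clone 11.

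Signalling and development members had 7 followers of 29, 3 that departed and a median slope of 1.09. A set of members, of this list and others, stood high in clones 10 and 11 alike, whatever the step of these 2 clones. Efnb2, coding ephrin-B2, a membrane ligand of Eph receptors (chr8:8617434-8661242, minus strand), stood at 7.49, 7.52, 31.9 and 9.80 CPM in clones 1, 4, 11 and 13, 7.35 in clone 6 and 12.7, 32.5, 16.5 and 17.9 in clones 8, 10, 14 and 17. Clones 10 and 11 reached almost the same level and lay above the other 7, and the range was 4.42-fold between clones 10 and 6 (exact 95% interval 3.57 to 5.53). Irs2, an adaptor of insulin and IGF receptors, stood at 18.8, 14.8, 56.5 and 15.9 CPM in clones 1, 4, 11 and 13, 18.5 in clone 6 and 23.6, 56.2, 30.5 and 28.6 in clones 8, 10, 14 and 17. Dusp4, a phosphatase that inactivates MAP kinases, stood at 43.96, 32.98, 102 and 38.7 CPM in clones 1, 4, 11 and 13, 43.1 in clone 6 and 51.4, 114, 60.3 and 49.3 in clones 8, 10, 14 and 17. Tpm4, a tropomyosin of the actin cytoskeleton, stood at 60.8, 61.01, 126 and 59.2 CPM in clones 1, 4, 11 and 13, 63.5 in clone 6 and 109.8, 175, 101 and 94.1 in clones 8, 10, 14 and 17. For all 4 genes the highest 2 clones were 10 and 11. After subtraction of the step, 28 members (4.3%) had clones 10 and 11 above the other 7 by at least 0.3 log2, where the share over all genes tested was 3.97%. The opposite order was found for 7 members (1.1%) against 1.17%. Both shares lie near the background. Fat1, a giant protocadherin, stood at 358, 472, 744 and 409.9 CPM in clones 1, 4, 11 and 13, 529 in clone 6 and 717, 856, 834 and 573 in clones 8, 10, 14 and 17. It was higher in clone 11 than in clone 8. Among the less abundant, Acta1, skeletal muscle actin, stood at 4.55 and 6.84 CPM in clones 10 and 11 against 0.0716 to 1.29 CPM elsewhere. Pdlim3 stood at 3.32 and 2.97 CPM against 0.51 to 1.70 CPM elsewhere. In the same 2 clones Col1a1 was high and Esrrb, Nanog, Pou5f1 and Sox2 were at their lowest. The markers Sall4, Lin28a and Thy1 lay within the range of the other 7 clones. The part of all these markers in these values was not tested. The cytoskeleton and matrix members, which include Acta1, Pdlim3 and Tpm4, had the lowest median slope of the 9 lists, 0.64, with 2 followers and 4 departing of 17. The part of level in this was not tested. Tacc1 and Arhgef7 of this list had slopes of 1.00 and 1.72, and Cotl1 one of 0.84.

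Other members ran furthest beyond the step in clones 8, 14 and 17. Exoc3l, a relative of exocyst subunits, stood at 16.01, 25.4, 14.6 and 16.3 CPM in clones 1, 4, 11 and 13, 21.6 in clone 6 and 49.1, 18.4, 49.4 and 76.03 in clones 8, 10, 14 and 17. Clone 10 had less of it than clones 4 and 6. Zmat4, a zinc finger protein, stood at 9.31, 3.57, 4.22 and 11.9 CPM in clones 1, 4, 11 and 13, 8.76 in clone 6 and 30.1, 9.46, 27.02 and 33.3 in clones 8, 10, 14 and 17, ranging 9.31-fold between clones 17 and 4 (exact 95% interval 6.89 to 12.9). Kifc3, a kinesin picked after its values were seen, stood at 38.3, 48.5, 35.7 and 37.6 CPM in clones 1, 4, 11 and 13, 53.9 in clone 6 and 97.5, 57.4, 104 and 116 in clones 8, 10, 14 and 17. Piezo1, a mechanically gated cation channel, stood at 99.1, 122, 164 and 114 CPM in clones 1, 4, 11 and 13, 159 in clone 6 and 284, 219, 321 and 333 in clones 8, 10, 14 and 17. Clones 8, 14 and 17 were the 3 highest for all 4 genes. After subtraction of the step, 11 members (1.7%) had these 3 clones highest by 0.3 log2 or more, against 2.65% of all genes tested. The reverse order was found for 23 members (3.6%) against 3.26%, again near the background. Ntpcr, a nucleoside triphosphatase, showed it, at 17.3, 14.6, 10.6 and 15.7 CPM in clones 1, 4, 11 and 13, 16.2 in clone 6 and 4.87, 14.8, 6.99 and 5.05 in clones 8, 10, 14 and 17. Its values in clones 8, 14 and 17 lay below those of the other 6. Chromosome 11 as a whole was low in the same 3 clones, and its part in these members was not tested. Prag1 stood at 28.4, 19.4, 36.6 and 27.9 CPM in clones 1, 4, 11 and 13, 31.2 in clone 6 and 17.2, 41.5, 32.7 and 17.8 in clones 8, 10, 14 and 17, low in clones 8, 17 and 4.

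Several strong departures were picked after their values were seen. Nkx6-3, a homeobox factor, stood at 1.34, 0.608, 0.760 and 2.14 CPM in clones 1, 4, 11 and 13, 1.84 in clone 6 and 9.95, 0.433, 6.34 and 18.2 in clones 8, 10, 14 and 17. Calb2, the calcium-binding protein calretinin, ran the other way, at 9.60, 13.2, 2.97 and 8.34 CPM in clones 1, 4, 11 and 13, 9.89 in clone 6 and 1.36, 3.03, 2.33 and 0.794 in clones 8, 10, 14 and 17. All 4 of clones 8, 10, 14 and 17 were below clones 1, 4, 13 and 6 for Calb2, with clone 11 among the low ones. Myom2, a protein of the muscle M band, stood at 18.3, 6.50, 3.26 and 18.04 CPM in clones 1, 4, 11 and 13, 14.5 in clone 6 and 3.56, 4.58, 2.99 and 3.62 in clones 8, 10, 14 and 17. Hydin, a protein of motile cilia, stood at 5.09, 7.14, 3.04 and 7.42 CPM in clones 1, 4, 11 and 13, 8.41 in clone 6 and 1.79, 3.68, 1.68 and 1.44 in clones 8, 10, 14 and 17. Triml1 and Triml2, TRIM-like neighbours, were lowest in clone 11 (19.99 and 53.6 CPM) and highest in clone 17 (75.7 and 175 CPM). Clone by clone, the members 1 log2 or more above and below the step numbered 4 and 13 in clone 1, 4 and 16 in clone 4, 3 and 5 in clone 6, and 6 and 20 in clone 8. They numbered 9 and 1 in clone 10, 17 and 5 in clone 11, 6 and 8 in clone 13, 4 and 12 in clone 14, and 9 and 15 in clone 17. The same counts over all genes were not taken clone by clone, so no number here is a trait of the chromosome. Over the clones together, 11.7% of members and 14.3% of all genes tested went this far from their chromosome in at least 1 clone. Departing members were mostly thinly counted: their median level was 2.97 CPM, against 61.7 CPM for followers, and 15 of the 76 reached 10 CPM.

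Of those 15, 4 are uncertain. The second gene model of Chtf8 had 1.91 CPM in clone 6, its lowest, and 45.1 CPM in clone 10, its highest, and shares 98.0% of its 31-base pieces with the other Chtf8 model at the same place. That other model, at 161 CPM, kept within 0.32 log2 of the step. Gm10131 had no count in clones 1 and 4 but reached 20.8 CPM in clone 11, and shares 95.5% with other genes, and Gm10282 shares 83.6%. Galnt2, a glycosyltransferase that starts mucin-type O-glycans, shares 88.9%, with Gm20388 overlapping it on the same strand, and was lowest in clone 8 at 15.6 CPM. Of the other named members, Zfhx3, a large homeobox and zinc finger factor, stood at 7.11, 6.01, 17.9 and 6.001 CPM in clones 1, 4, 11 and 13, 8.41 in clone 6 and 15.2, 21.2, 22.4 and 19.4 in clones 8, 10, 14 and 17. Apela, coding a peptide ligand of the apelin receptor, stood at 17.5, 9.42, 25.2 and 14.01 CPM in clones 1, 4, 11 and 13, 20.3 in clone 6 and 31, 29.1, 31.2 and 27.1 in clones 8, 10, 14 and 17. Both were lowest in clones 4 and 13, joined by clone 1 for Zfhx3. Zfp869 had a slope of 2.65, Rasa3 one of 1.25, Bbs2 one of 0.98 and Spire2 one of 0.36.

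The stress members had the highest median slope, 1.46, with 3 of 11 following and 1 departing, in lists not matched for level. Mt1, whose promoter is printed above, stood at 55.6, 88.4, 75.6 and 59.8 CPM in clones 1, 4, 11 and 13, 82.7 in clone 6 and 182, 126, 136 and 182 in clones 8, 10, 14 and 17. Mt2, which the naming rule does not cover, stood at 39.8, 62.3, 58.6 and 44.6 CPM in clones 1, 4, 11 and 13, 58.9 in clone 6 and 126, 103, 96.2 and 129 in clones 8, 10, 14 and 17. Clones 8 and 17 were the highest for both metallothioneins and clones 1 and 13 the lowest, and the residuals of the 2 genes correlated at r = 0.98 over the 9 clones. The genes lie 6418 bases apart. Mt2 shares 58.1% of its 31-base pieces with other genes, which makes its own level less certain. None of these pieces is held by Mt1, which shares 0 of its 1273 pieces with any other gene. Hmox1, haem oxygenase 1, stood at 66.6, 74.2, 98.6 and 76.1 CPM in clones 1, 4, 11 and 13, 98.3 in clone 6 and 137, 162, 151 and 158 in clones 8, 10, 14 and 17. Fkbp8, an anti-apoptotic chaperone, stood at 176, 169, 141 and 152 CPM in clones 1, 4, 11 and 13, 181 in clone 6 and 207, 206, 242 and 236 in clones 8, 10, 14 and 17 and followed, as did Dnaja2. Gdf15 departed at a mean of 1.24 CPM, on few counts. Among the 466 members at 10 CPM or more, residuals of 465 adjacent pairs had a median correlation of 0.13, against 0.04 for 107880 other pairs, over the same 9 clones. All pairs share these libraries and their depth. Triml1 and Triml2 had the highest correlation among these adjacent pairs (r = 0.99).

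Among the members, 19 are subunits of chosen complexes or partners in E2F and Runx dimers, and 55 counterparts are coded elsewhere. The dimer set holds Tfdp1, E2f4 and Cbfb, with Tfdp2, E2f1, E2f3, E2f5 and Runx1 elsewhere. It is not 1 complex, since it mixes separate dimers and alternative family members. The median slope on the step was 1.22 for the 19, from 0.24 to 1.95, and 0.09 for the 55, from -3.5 to 1.03. For the 45 of these not on chromosomes 6 or 11 the median was 0.15. Of the 19, 18 had a slope above 0.5, and the exception was Anapc10 (0.24), of the APC/C, the ubiquitin ligase of mitosis. Of the 55, 52 lay below 0.5, and the others were Vps26a (1.03), Anapc1 (0.79) and Cnot3 (0.62). Among all members, 61.7% had slopes from 0.5 to 1.5 and 20.2% above 1.5, against 18.9% and 4.10% of all genes tested. The step was taken from the members, the 19 among them, so these slopes and shares support nothing. Whether complex subunits differ from other genes of their chromosomes was not tested. In the GINS complex of the replication fork, Gins2, Gins3 and Gins4 lie on chromosome 8 and had slopes of 1.15, 1.59 and 0.70, while Gins1 of chromosome 2 had -0.75. Gins3 stood at 17.1, 14.4, 11.96 and 15.2 CPM in clones 1, 4, 11 and 13, 17.1 in clone 6 and 28.1, 20.9, 27.04 and 24.8 in clones 8, 10, 14 and 17. Gins1 stood at 56.5, 54.2, 39.05 and 46.5 CPM in clones 1, 4, 11 and 13, 46.2 in clone 6 and 35.6, 40.2, 37.4 and 37.5 in clones 8, 10, 14 and 17. It was highest in clones 1 and 4 and lowest in clones 8, 14 and 17, so the 2 subunits did not run in parallel. Gins2 shares 66.2% of its pieces with other genes. Mcm5 had a slope of 1.05 and its 5 partners slopes of -0.37 to 0.43. Orc6 of the origin recognition complex had 1.22 and its 5 partners -0.10 to 0.41. Farsa, the alpha chain of phenylalanyl-tRNA synthetase, stood at 113, 154, 112 and 109 CPM in clones 1, 4, 11 and 13, 138 in clone 6 and 194, 184, 229 and 210.2 in clones 8, 10, 14 and 17. Farsb, the beta chain coded on chromosome 1, stood at 162, 167, 132 and 168 CPM in clones 1, 4, 11 and 13, 166 in clone 6 and 172, 144, 149 and 169.6 in clones 8, 10, 14 and 17. The alpha chain separated clones 8, 10, 14 and 17 from the rest, and the beta chain did not. Vps35 of retromer had a slope of 1.61, Vps29 one of -0.01 and Vps26b one of -0.38. Cdc16 of the APC/C had 1.95, Ash2l 1.59, and Cope of the COPI coat 0.75. Cog2, Cog4 and Cog8, of the Golgi tethering complex COG, had slopes from 0.72 to 1.16. The other 5 COG subunits ran from -1.23 to 0.36, the lowest being Cog1 of chromosome 11, which was low as a whole in clones 8, 14 and 17. Tfdp1, E2f4 and Cbfb, the partner of Runx factors, had slopes of 1.78, 1.76 and 1.54.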

How the data were processed

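Poly(A) RNA of 9 clones was sequenced after a stranded mRNA preparation, per the labels' protocols. The submitters' processing notes name CASAVA 1.8, FastQC, Trimmomatic 0.33 and kallisto 0.43.1. Each table gives, per the file headers, estimated counts (fractions of reads occur) and TPM per transcript as deposited by the authors, with 1 table per clone. Counts of 113580 of 115270 transcripts (98.53%) were summed to 35580 genes by GENCODE M21, and the unmatched rest held 0.641 to 0.773% of the counts. kallisto divides reads among similar transcripts, so counts can move between gene copies.

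TMM factors came from edgeR 4.0.16, and log2 CPM used its formula with a prior count of 2, with no rounding and no test. Members and gene lists were chosen with earlier results of these data known. The named genes are, at 10 CPM or more, the 10 members of smallest and the 12 of largest root mean square residual, the 6 with slope nearest 0 at 20 CPM or more, the 6 of highest level and 2 per direction in each clone. For each list 4 were named by level and 2 by residual, without the 10 CPM minimum, and the complex subunits were named too. Not every gene so named is reported here. Others are said to be picked after their values were seen. Intervals of folds cover counting error only. Shared sequence was counted in 31-base pieces of the transcripts. Scripts were tested on simulated data. Alternatives were median-ratio size factors, factors without chromosomes 6, 8 and 11, no minimum or 5 CPM, log2(TPM + 1), a prior count of 0.5, the gene mean as reference and each clone left out. Other steps ran in Python 3.11.15 with scipy 1.17.1, pandas 2.3.3 and numpy 2.4.6.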

Additional observations from a re-analysis of the deposited data

How the results depend on the processing

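Values were recomputed with 1 choice changed at a time. Of 77 values under alternatives other than leaving out a clone, 56 stayed within their tolerance, 21 moved and 0 changed direction. A change of direction could be called only for a step whose interval lay off 0, so never for a count or for clone 6. The tolerance was the 95% binomial interval of the median over members for a step, and 1.5 times for a count, so the 2 kinds are not held to the same measure. That interval takes the members as independent draws. Without a minimum level (900 members) the steps shrank to -0.145 (clone 1), -0.155 (clone 4), 0.233 (8), 0.229 (10), -0.159 (11), -0.156 (13), 0.257 (14) and 0.246 (17), and 183 members departed; at a minimum of 5 CPM, 30 departed. With log2(TPM + 1) the steps were -0.251 in clone 1, -0.004 in clone 6, -0.058 in clone 11, 0.243 in clone 14 and 0.24 in clone 17, and 32 members departed. There genes off the chromosome had a median of 0.069 in clone 11. Against the gene mean the steps were -0.267, -0.26, -0.071, -0.262 and -0.24 in clones 1, 4, 6, 11 and 13. Apart from the number of members that a minimum admits, the cause of these moves was not tested. Leaving out each clone in turn, the steps ranged from -0.31 to -0.161 (clone 1), -0.306 to -0.155 (4), -0.115 to 0.008 (6), 0.202 to 0.336 (8), 0.166 to 0.316 (10), -0.31 to -0.168 (11), -0.29 to -0.144 (13), 0.221 to 0.369 (14) and 0.221 to 0.367 (17). Followers then numbered 191 to 264 and departing members 61 to 72. Depth limits members below about 10 CPM most. In the lowest bin, up to 7.74 CPM, counting alone gave a spread of 0.25 log2, against 0.42 around the step. No paired analysis was possible because the labels put the clones in no group.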

Other observations

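Among other members picked after their values were seen, Pou4f2, a POU-homeobox factor, stood at 2.40, 3.04, 2.42 and 2.37 CPM in clones 1, 4, 11 and 13, 3.11 in clone 6 and 12.7, 7.37, 8.60 and 12.6 in clones 8, 10, 14 and 17. Adgra2, an adhesion receptor, stood at 0.384, 0.988, 4.36 and 0.765 CPM in clones 1, 4, 11 and 13, 0.636 in clone 6 and 0.859, 3.32, 1.53 and 0.722 in clones 8, 10, 14 and 17. Gpt2, the mitochondrial alanine transaminase, stood at 47.99, 52.6, 29.4 and 50.2 CPM in clones 1, 4, 11 and 13, 52.5 in clone 6 and 98.9, 46.8, 68.8 and 108 in clones 8, 10, 14 and 17. Grtp1 stood at 32.2, 23.8, 18.3 and 31 CPM in clones 1, 4, 11 and 13, 31.4 in clone 6 and 62.01, 26.6, 55.1 and 62.8 in clones 8, 10, 14 and 17, and overlaps Lamp1 on the other strand. Pou4f2 was highest in clones 8 and 17, Adgra2 in clones 10 and 11, and Gpt2 and Grtp1 were lowest in clone 11.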
